A study of Homo sapiens with 21 samples.

Results

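Spheroids of HepG2/C3A cells kept for 28 days were compared with spheroids of the same cells kept for 3 days, the last and the first day of 3D culture that were sampled. The comparison rests on 6 of the 21 libraries of the series, 3 at Day 28 and 3 at Day 3, taken by the day in their labels, and on 12345 genes tested of 19683 gene symbols in the table. HepG2/C3A is a human liver tumour line, C3A being a clonal derivative of HepG2, and the labels give it as wild type and epithelial-like. In both groups the cells had been forced to aggregate in ultra-low attachment plates and then held in a rotating ClinoReactor, in MEM with fetal bovine serum, non-essential amino acids and antibiotics, with no other treatment named. Gene levels came from TempO-Seq, in which pairs of detector oligos ligate on a short stretch of each target RNA and the ligated products are sequenced and counted. A level is therefore comparable between libraries for 1 gene but not between genes.

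Hepatocytes are long-lived cells that make most plasma proteins, carry out gluconeogenesis and bile acid synthesis, and rarely divide. Tumour lines derived from them divide quickly, use glycolysis and lipid synthesis to do so, and keep only part of the hepatocyte programme. In spheroids the cells are in contact on all sides, and cells in the interior receive oxygen and nutrients by diffusion. Growth is known to slow in such cultures as spheroids age. Cells short of amino acids or with misfolded protein in the endoplasmic reticulum (ER) switch on stress programmes run by the factors ATF4, XBP1 and ATF6.

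The 6 libraries held 18760232 to 38460731 counts, the shallowest being Day 28 replicate 1. Levels are given as CPM, counts set against a library size scaled by TMM, and each is a share of the RNA measured in its library. Replicates of Day 28 spread more than those of Day 3, with a median SD of log2 CPM of 0.118 at Day 28 and 0.0652 at Day 3 over 7133 genes. Replicates are labelled biological, but nothing says that each was its own culture. A p-value here therefore reflects how the replicates of all groups of the series spread, which may be technical. Of 13 hepatocyte markers none was at 0 in all 6 libraries, and the summed level of the list ran from 30420 to 33790 CPM at Day 28 and from 38860 to 41090 CPM at Day 3. Of the stellate and fibroblast markers 9 of 13 were at 0 in all 6 libraries, COL1A1, COL3A1 and DCN among them, of the endothelial markers 6 of 13, and of the immune markers 8 of 13, PTPRC and CD163 among them. The summed level was 12.97 to 18.1 CPM at Day 28 and 27.7 to 31.2 CPM at Day 3 for the stellate list. For the endothelial list it was 1.67 to 1.97 CPM at Day 28 and 0.994 to 1.24 CPM at Day 3. For the immune list, carried by LYZ and CD68, it was 87.2 to 98.8 CPM at Day 28 and 225.2 to 229.1 CPM at Day 3. A summed level adds genes whose levels cannot be compared with each other, so it compares libraries for 1 list and not 1 list with another. The part of these markers in the results that follow was not tested.

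Most genes measured differed between the 2 days of culture. Between Day 28 and Day 3, 7363 of the 12345 genes passed edgeR's quasi-likelihood test (p adjusted by Benjamini-Hochberg, called when under 0.05), which is 59.6% of those tested. Of these 3636 were higher at Day 28 (29.5% of genes tested) and 3727 were lower (30.2%). A change of at least 2-fold was seen in 2378 called genes (19.3%), 1073 higher (8.69%) and 1305 lower (10.6%). The 3 Day 28 libraries did not overlap the 3 Day 3 libraries in 7886 genes (63.9%). The median log2 fold change over all genes tested was 0.0047, so the counts below for a gene list are read against a table that moved about equally in both directions. List counts cover tested members only, which are 1297 of the 1457 listed genes. Changes given without a unit are log2 fold changes, Day 28 over Day 3, and ± is the SE, with 3 libraries a group. In bulk RNA, fewer cells of a kind and less RNA per cell cannot be told apart.

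**Figure D1:**
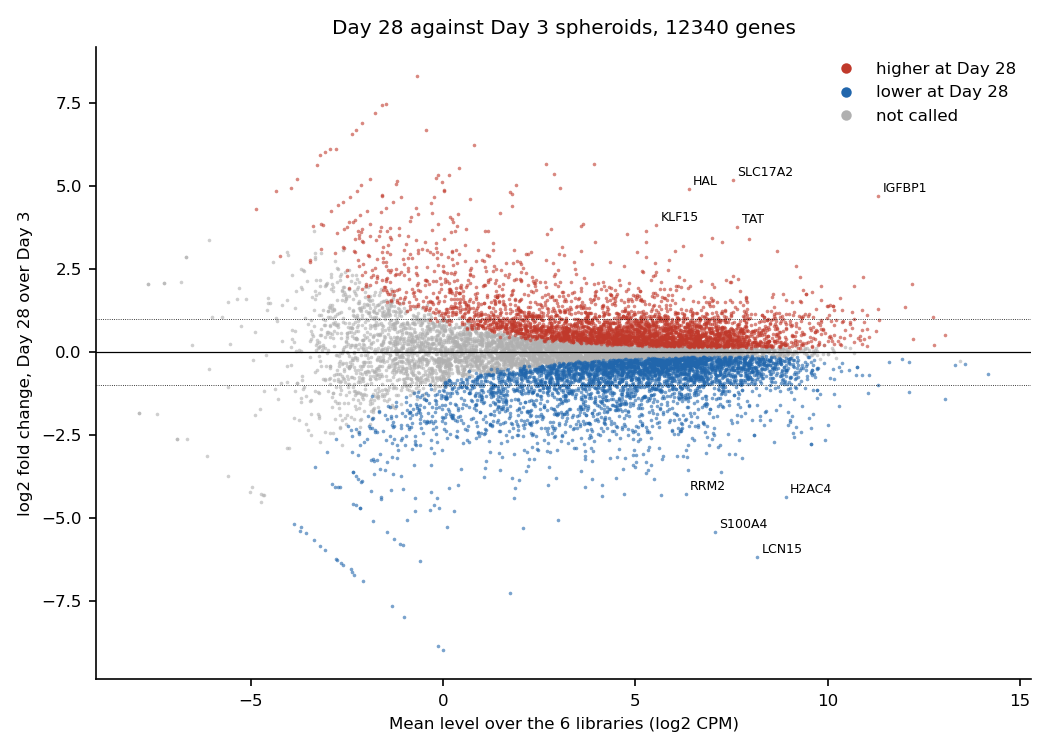
Each point is 1 gene; the x axis is its mean level over the 6 libraries (log2 CPM) and the y axis its log2 fold change, Day 28 over Day 3. Red points were called higher at Day 28 and blue points lower, grey points were not called, dotted lines mark 2-fold, and 5 tested genes at 0 in all 6 libraries are not drawn. Called genes lie on both sides of 0 over most of the range of levels. The names mark large changes among the rises (IGFBP1, TAT) and the falls (LCN15, S100A4).

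The largest rises, leaving out genes averaging under 10 CPM or overlapping between groups, were in KLHDC7B, SLC17A2, HAL, IGFBP1, GPR83, KLF15, DEPTOR, TAT, AKNA and RBP2. IGFBP1, a liver-secreted binding protein for insulin-like growth factors that insulin represses, stood at 5008, 5004 and 4689 CPM at Day 28, against 187, 186 and 193 CPM at Day 3. Every Day 28 library was far above every Day 3 library, a log2 fold change of 4.70 ± 0.09 (SE, adjusted p = 1.27e-28). SLC17A2, a member of the sodium phosphate transporter family, stood at 409, 318 and 350.0 CPM at Day 28, against 10.5, 10.4 and 8.75 CPM at Day 3 (log2 fold change 5.17 ± 0.10, adjusted p = 2.94e-27). HAL and TAT, which start the breakdown of histidine and of tyrosine, both rose. HAL stood at 193, 144 and 150.2 CPM at Day 28, against 4.77, 5.98 and 5.49 CPM at Day 3. TAT, a marker of differentiated hepatocytes that glucocorticoids and fasting induce, stood at 435, 307 and 382 CPM at Day 28, against 26.2, 28.7 and 27.8 CPM at Day 3. In both genes the groups lay far apart, with log2 fold changes of 4.91 ± 0.20 for HAL and 3.76 ± 0.10 for TAT. TAT was 1 of 3 listed hepatocyte markers called higher, while 9 of the 12 tested were called lower. KLF15, a transcription factor of amino acid catabolism and gluconeogenesis, changed by 3.83 and DEPTOR, an inhibitor of the growth kinase mTOR, by 3.79 on the log2 scale. KLHDC7B, the largest rise, stood at 27.4, 29.4 and 33.2 CPM at Day 28 and at 0.795, 0.484 and 0.425 CPM at Day 3.

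The largest falls were in LCN15, S100A4, H2AC4, S100A3, FAM111B, RRM2, HEPACAM, PGC, MYBL2 and TK1. LCN15, a lipocalin, stood at 9.50, 7.25 and 7.06 CPM at Day 28, against 563, 556 and 585 CPM at Day 3 (log2 fold change -6.18 ± 0.53, adjusted p = 6.20e-08). S100A4, a calcium-binding protein linked to cell motility, stood at 5.12, 6.11 and 7.10 CPM at Day 28, against 264, 261 and 268 CPM at Day 3 (-5.42 ± 0.31, adjusted p = 4.37e-10). RRM2, the S-phase subunit of ribonucleotide reductase, stood at 8.06, 8.01 and 7.06 CPM at Day 28, against 155, 146 and 152 CPM at Day 3 (-4.29 ± 0.30). Of the other names, the histone gene H2AC4, the S-phase protease FAM111B, the factor MYBL2 and the thymidine kinase TK1 also belong to dividing cells and had log2 fold changes of -4.37, -4.32, -4.01 and -3.84.

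Genes of cell division were lower at Day 28 without exception in the 2 main lists. All 38 tested genes of mitosis, of 40 listed, were called lower, with a median log2 fold change of -2.24 and a range from -3.40 to -0.84, where 30.2% of all genes tested were lower. All 38 genes of DNA replication were called lower, with a median of -1.93. MKI67, the proliferation antigen Ki-67, stood at 22.4, 25.9 and 28.0 CPM at Day 28, against 155, 164 and 157 CPM at Day 3. The groups did not overlap, and the log2 fold change was -2.64 ± 0.17 (adjusted p = 3.94e-10). SPC24 and SPC25, which link kinetochores to microtubules, had log2 fold changes of -3.40 and -3.31, and cyclin B2 (CCNB2) one of -1.69. CCNB2 was still at 32.8, 28.6 and 26.6 CPM at Day 28, against 101, 92.9 and 88.7 CPM at Day 3. The smallest change in the mitosis list was that of CDC25C, a phosphatase that activates CDK1, at -0.84.

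The promoters of mitotic genes share short sequences, and 2 are shown because both genes are among the falls just described. The window runs from 250 bases before to 50 after the transcription start in the RefSeq promoter table for GRCh38.p14. It was searched on both strands for TTTGAA, the core of the cell cycle genes homology region (CHR), and for CCAAT, whose matches can overlap it by at most 1 base. A promoter was in the table for 32 of the 38 mitosis genes. TTTGAA was in 22 of these 32 promoters (68.8%), in 1 of 35 promoters of DNA replication genes (2.86%) and in 4212 of all 27305 promoters (15.4%); among promoters of all genes tested the share was 9.97%. CCAAT was in 26 of the 32 mitosis promoters (81.2%), in 20 of the 35 replication promoters (57.1%) and in 35.7% of all promoters. It was not particular to division genes. CCAAT was also in 20 of 23 promoters of the ER chaperone list below (87.0%), most of whose genes rose. In the cholesterol list it was in 16 of 21 (76.2%) and in the ATF4 list in 11 of 24 (45.8%). The lists hold textbook division genes and were not drawn up from their sequence. Their shares were still in part set beforehand and test nothing. A match describes the letters only. In the lines that follow TTTGAA or its reverse complement is in capitals, for SPC25 (chr2:168890381-168890680, minus strand) and CCNB2 (chr15:59104896-59105195, plus strand), 5′ to 3′ along the gene.
SPC25: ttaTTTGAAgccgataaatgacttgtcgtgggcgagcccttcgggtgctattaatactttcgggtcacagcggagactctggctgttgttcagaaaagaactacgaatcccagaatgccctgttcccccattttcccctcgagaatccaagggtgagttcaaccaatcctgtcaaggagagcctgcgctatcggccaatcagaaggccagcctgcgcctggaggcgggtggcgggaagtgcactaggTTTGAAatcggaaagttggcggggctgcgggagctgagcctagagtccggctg
CCNB2: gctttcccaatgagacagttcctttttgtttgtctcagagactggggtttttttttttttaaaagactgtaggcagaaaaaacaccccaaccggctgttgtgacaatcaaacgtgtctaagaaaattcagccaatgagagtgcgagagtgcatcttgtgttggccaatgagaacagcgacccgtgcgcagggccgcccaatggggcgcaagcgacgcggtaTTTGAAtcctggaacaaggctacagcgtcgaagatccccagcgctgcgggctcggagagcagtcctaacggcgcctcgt
SPC25 holds the letters at the far end of its window and again across its start site, and CCNB2 holds them once, shortly before its start site.

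Genes around the division programme followed in part. In DNA repair 21 of 24 tested genes were lower and 2 higher (1 without Day 28 replicate 1), with a median of -1.68; RAD51AP1 and FANCI, which act in homologous recombination and crosslink repair, had log2 fold changes of -3.23 and -3.01. Among G1 cyclins, E2F factors and inhibitors 14 of 23 were lower and 4 higher. The S-phase factors E2F8 and E2F7 were lower, at -3.83 and -3.17. Cyclin D1 (CCND1) fell by 1.15 on the log2 scale. The CDK inhibitor CDKN1A (p21) was low in both groups, at 0.747, 0.292 and 0.466 CPM at Day 28 and at 1.12, 1.59 and 1.70 CPM at Day 3, a log2 fold change of -1.61 ± 0.40. The CDK inhibitor CDKN2B was called higher, on 27 counts in the Day 28 libraries and 2 in the Day 3 libraries. It was not called without Day 3 replicate 1 or Day 3 replicate 2. Also against the direction of the list, MYC stood at 614, 618 and 549.9 CPM at Day 28, against 270.4, 253 and 267 CPM at Day 3. That is a log2 fold change of 1.17 ± 0.07 (adjusted p = 2.86e-16), and its relative MYCL changed by 3.55. Of 26 targets of p53, 14 were lower and 5 higher, with a median of -0.60. MDM2, the ligase that degrades p53, stood at 1721, 1595 and 1639 CPM at Day 28, against 2642, 2722 and 2573 CPM at Day 3. The rises in that list included GDF15 and BBC3, at 1.22 and 1.14 on the log2 scale, both of which ATF4 and its partner CHOP are also known to induce. What raised GDF15 and BBC3 was not tested. In a list of 12 genes, of tubulins and the tubulin binder STMN1, 10 were lower and none higher, with TUBA1B at -2.04 and STMN1 at -2.06; tubulin copies are so alike that counts of single copies are uncertain.

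**Figure D2:**
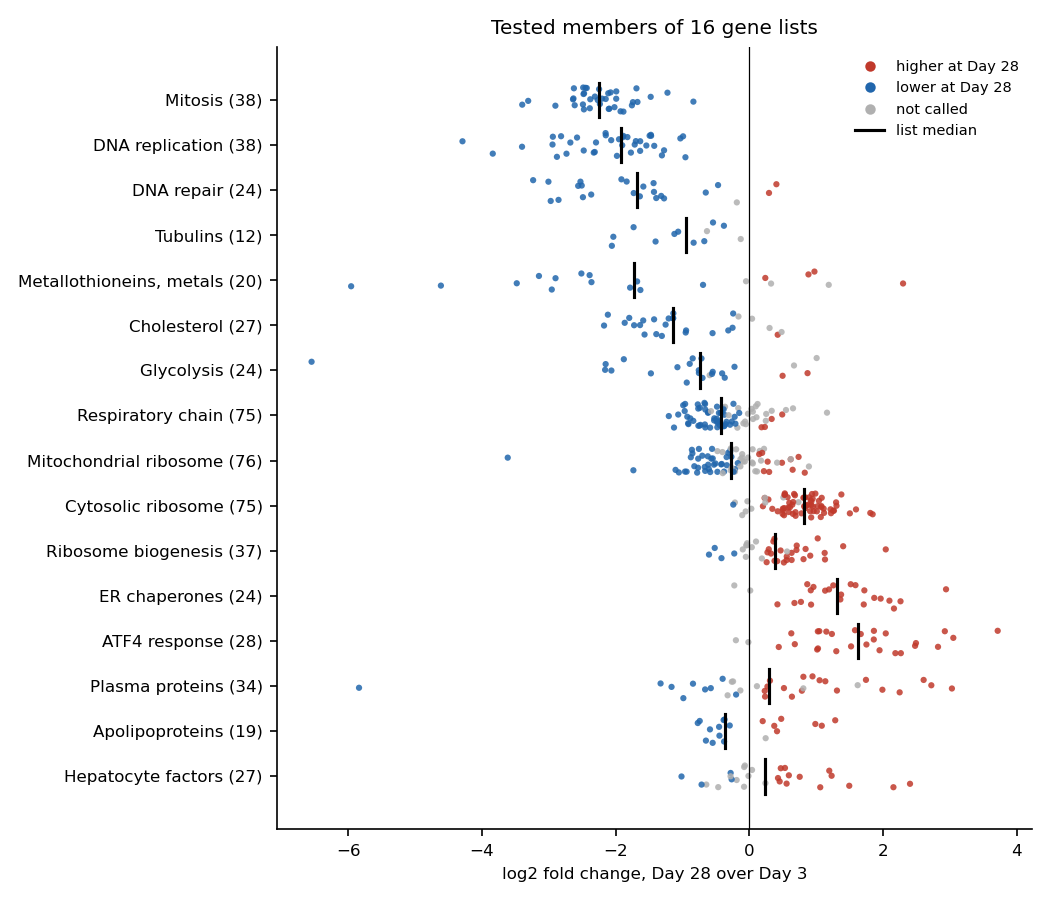
Each point is a tested member of 1 of 16 gene lists, placed by its log2 fold change, Day 28 over Day 3, with the number tested in brackets; colours give the call and black bars the list median. The points of HK1, MT1A and ITIH4, which were at 0 in every Day 28 library, lie where the fit's prior count puts them. Mitosis and DNA replication lie wholly left of 0, ATF4 response and ER chaperones almost wholly right of it, and plasma proteins and apolipoproteins on both sides.

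Targets of ATF4 and genes of the ER chaperone system were higher at Day 28. In the list of ATF4 targets, which import and make amino acids and charge tRNAs, 26 of 28 genes were higher and none lower, with a median of 1.62, and 23 of them rose at least 2-fold. CHAC1, which degrades glutathione, stood at 13.6, 12.5 and 12.7 CPM at Day 28, against 1.32, 0.830 and 0.709 CPM at Day 3 (3.72 ± 0.30, adjusted p = 1.32e-10). DDIT3, which encodes CHOP, stood at 121, 109 and 123 CPM at Day 28, against 14.0, 13.01 and 15.5 CPM at Day 3 (3.05 ± 0.11). ASNS, asparagine synthetase, stood at 195, 183 and 177 CPM at Day 28, against 24.5, 25.0 and 23.5 CPM at Day 3 (2.92 ± 0.07, adjusted p = 7.48e-26). No library of 1 group reached the other in any of these genes. ATF4 itself, whose protein is controlled mainly by translation, changed less, by 0.63. The cystine importer SLC7A11 rose by 2.49, and the serine synthesis genes PSAT1 and PHGDH by 0.68 and 1.05. NUPR1 and PSPH were not called, at -0.20 and -0.01.

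In the list of ER chaperones and ER-associated degradation 22 of 24 genes were higher and none lower, with a median of 1.31. HSPA5, the main ER chaperone BiP, stood at 974, 964 and 1148 CPM at Day 28, against 279.7, 292 and 273 CPM at Day 3. The groups lay far apart, with a log2 fold change of 1.87 ± 0.07 (adjusted p = 2.55e-20). ERN1, the stress sensor IRE1, rose by 2.94 and SEL1L, an adaptor of ER-associated degradation, by 2.26. HYOU1, an ER chaperone of the HSP110 family, rose by 2.16. XBP1, whose product acts after its mRNA is spliced by IRE1, overlapped between the groups, with a log2 fold change of 0.01 ± 0.09; the assay does not read its splicing. Cytosolic heat shock genes split, with 7 of 19 higher and 8 lower.

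The next promoters are shown because each holds the element known for its pathway. The same windows were searched on both strands for TGATGNAA, the composite element that ATF4 binds, and for the ER stress element, a CCAAT followed after 9 bases of any kind by CCACG, so that each match holds a CCAAT. The ATF4 element was in 7 of 24 promoters of the ATF4 list (29.2%), in 1 of 23 of the ER list (4.35%) and in 3.67% of all promoters. Among promoters of all genes tested its share was 1.77%. The ER stress element was in 6 of 23 promoters of the ER list (26.1%), in 0 of 24 of the ATF4 list and in 22 of all promoters (0.0806%). Among promoters of all genes tested its share was 0.151%. The lists hold textbook genes of each pathway, so these shares were in part set beforehand and test nothing. In the lines that follow these elements or their reverse complements are in capitals, the ATF4 element in ASNS (chr7:97872359-97872658, minus strand) and CHAC1 (chr15:40953221-40953520, plus strand), the ER stress element in HSPA5 (chr9:125241294-125241593, minus strand) and CALR (chr19:12938359-12938658, plus strand).
ASNS: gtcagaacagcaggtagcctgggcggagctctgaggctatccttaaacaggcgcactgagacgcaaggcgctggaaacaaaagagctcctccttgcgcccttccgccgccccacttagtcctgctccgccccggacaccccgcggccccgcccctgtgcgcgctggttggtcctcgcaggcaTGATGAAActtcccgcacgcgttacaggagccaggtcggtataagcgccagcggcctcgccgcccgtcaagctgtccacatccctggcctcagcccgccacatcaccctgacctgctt
CHAC1: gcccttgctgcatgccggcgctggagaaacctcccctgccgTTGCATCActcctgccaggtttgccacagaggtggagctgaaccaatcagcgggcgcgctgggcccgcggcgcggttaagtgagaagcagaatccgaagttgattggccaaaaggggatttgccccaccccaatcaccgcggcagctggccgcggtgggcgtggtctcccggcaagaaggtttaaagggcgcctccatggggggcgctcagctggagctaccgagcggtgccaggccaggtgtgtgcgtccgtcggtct
HSPA5: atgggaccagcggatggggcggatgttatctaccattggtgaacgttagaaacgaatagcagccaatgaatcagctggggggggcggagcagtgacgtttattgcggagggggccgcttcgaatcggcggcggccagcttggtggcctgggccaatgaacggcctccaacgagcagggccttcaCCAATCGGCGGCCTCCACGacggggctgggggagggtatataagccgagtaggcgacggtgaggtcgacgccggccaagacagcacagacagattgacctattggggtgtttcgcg
CALR: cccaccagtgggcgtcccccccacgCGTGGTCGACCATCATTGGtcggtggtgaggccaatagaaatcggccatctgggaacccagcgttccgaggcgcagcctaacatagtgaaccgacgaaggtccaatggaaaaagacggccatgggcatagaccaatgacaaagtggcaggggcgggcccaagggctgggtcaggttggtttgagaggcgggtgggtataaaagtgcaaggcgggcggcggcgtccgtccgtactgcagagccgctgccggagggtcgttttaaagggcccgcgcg
CALR, the ER calcium-binding chaperone calreticulin, rose by 0.92 on the log2 scale and stood at 1548, 1330 and 1433 CPM at Day 28, against 794, 745 and 734 CPM at Day 3.

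Of 21 tested genes of methionine and folate metabolism, 7 were higher and 3 lower. MAT2A, which makes the methyl donor S-adenosylmethionine, stood at 472, 452 and 435 CPM at Day 28, against 42.1, 46.5 and 40.9 CPM at Day 3 (3.39 ± 0.07, adjusted p = 2.94e-27). CTH and CBS, which turn homocysteine into cysteine, rose by 2.32 and 1.64, and the mitochondrial folate enzyme MTHFD2 by 1.76. The falls included TYMS, which makes thymidylate for DNA synthesis, at -2.21, and the folate enzyme MTHFD1 at -0.68.

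Genes of the cytosolic ribosome rose together. Of 75 tested ribosomal protein genes 65 were higher, 20 of them at least 2-fold, and 1 was lower, with a median of 0.82. RPL34 stood at 345, 323 and 329 CPM at Day 28, against 86.8, 88.6 and 102 CPM at Day 3 (1.84 ± 0.13). The 1 lower gene was RPL41 (-0.24), whose groups overlapped and which was not called without Day 28 replicate 2, Day 28 replicate 3, Day 3 replicate 1 or Day 3 replicate 3. Ribosomal protein genes have many processed pseudogenes, so counts of single members are uncertain. In ribosome biogenesis 24 of 37 genes were higher and 4 lower, with a median of 0.38. NPM1, nucleophosmin, stood at 1700, 1570 and 1388 CPM at Day 28, against 568, 562 and 632 CPM at Day 3 (1.40 ± 0.08), while the snoRNP protein NOP56 fell by 0.60. The mitochondrial ribosome went the other way in more genes than not, with 39 of 76 lower, 10 higher and a median of -0.28. So did the respiratory chain, with 50 of 75 lower, 4 higher and a median of -0.42. Most of these changes were small: COX7A2, a subunit of complex IV, fell by 1.13 and was 1 of 3 genes of the chain to fall at least 2-fold.

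Sterol synthesis was lower at Day 28. In the cholesterol list 22 of 27 genes were lower and 1 higher (2 without Day 28 replicate 1), with a median of -1.14, and 16 fell at least 2-fold. IDI1, an isomerase of the mevalonate pathway, stood at 216, 172 and 196 CPM at Day 28, against 825, 864 and 840.0 CPM at Day 3 (-2.12 ± 0.08, adjusted p = 6.34e-20). The groups lay far apart. LSS, which closes the sterol ring, fell by 2.17. SREBF2, the factor that drives the pathway and is controlled by cleavage of its protein, was not called (-0.16 ± 0.09). The sterol response element, searched as TCACNCCAC, was in 1 of 21 promoters of the list, that of SREBF2, and in 1.15% of all promoters. Other forms of the element were not searched.

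Genes of fatty acid and triglyceride synthesis, lipid droplet proteins included, were lower in 17 of 29 and higher in 4. FASN, fatty acid synthase, stood at 179, 206 and 219.9 CPM at Day 28, against 861, 869.7 and 796 CPM at Day 3 (-2.06 ± 0.09). The desaturase FADS2 and AGPAT2, which acylates lysophosphatidic acid, were lower at -3.21 and -2.39 on the log2 scale. The lipid droplet protein PLIN5 and the acyltransferase GPAM rose by 2.73 and 1.61. Fatty acid oxidation did not move one way, with 9 of 29 genes higher and 11 lower. Its inducible regulator PPARGC1A stood at 70.2, 85.9 and 71.5 CPM at Day 28, against 24.8, 26.0 and 27.1 CPM at Day 3 (1.55 ± 0.10).

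Glycolysis was lower in 19 of 24 genes and higher in 2, with a median of -0.74. HK1 was at 0 in all 3 Day 28 libraries, against 33 counts in the 3 Day 3 libraries, at least 8.86-fold lower at Day 28 when set against a floor of 3 counts over the group. The neuronal-type glucose transporter gene SLC2A3 stood at 22.9, 31.5 and 24.8 CPM at Day 28, against 117, 118 and 119 CPM at Day 3 (-2.15 ± 0.23); its near-copy SLC2A14 makes the count uncertain. LDHA, a lactate dehydrogenase subunit, and GAPDH were lower at -0.72 and -0.56. HK2, the inducible hexokinase, stood at 777, 1006 and 1029 CPM at Day 28, against 512, 492 and 535 CPM at Day 3 (0.87 ± 0.09). Gluconeogenesis and glycogen genes were mixed, 7 of 19 higher and 8 lower. Both committed enzymes of glucose output rose. G6PC stood at 39.5, 20.0 and 27.0 CPM at Day 28, against 6.29, 5.88 and 7.65 CPM at Day 3 (2.12 ± 0.22), and PCK1 at 18.8, 12.5 and 8.27 CPM at Day 28, against 3.70, 4.08 and 3.47 CPM at Day 3 (1.80 ± 0.23). The Day 28 libraries of both genes differed by about 2-fold among themselves, but none reached a Day 3 library.

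Insulin and growth factor signalling genes were higher in 14 of 28 and lower in 9. IRS1, the adaptor of the insulin receptor, stood at 74.1, 85.3 and 88.0 CPM at Day 28, against 18.4, 20.8 and 18.2 CPM at Day 3 (2.11 ± 0.10, adjusted p = 9.17e-19). The receptor gene INSR rose by 1.07. IGFBP3 was at 0 in all 3 Day 3 libraries and had 102 counts in the 3 Day 28 libraries, at least 42.2-fold higher at Day 28. TXNIP, a brake on glucose uptake that glucose induces, fell by 2.93. Hypoxia targets did not move one way, with 9 of 23 higher, 8 lower and a median of -0.06. VEGFA stood at 311, 315 and 299 CPM at Day 28, against 150.3, 140.4 and 154 CPM at Day 3 (1.06 ± 0.06). NDRG1 rose by 1.99 and STC2 by 2.12, genes that ER stress is also known to induce. Which signal raised these 2 genes was not tested. CA9, a hypoxia-induced carbonic anhydrase, was under 1.5 CPM in all 6 libraries compared and lower at Day 28, at -2.10.

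**Figure D3:**
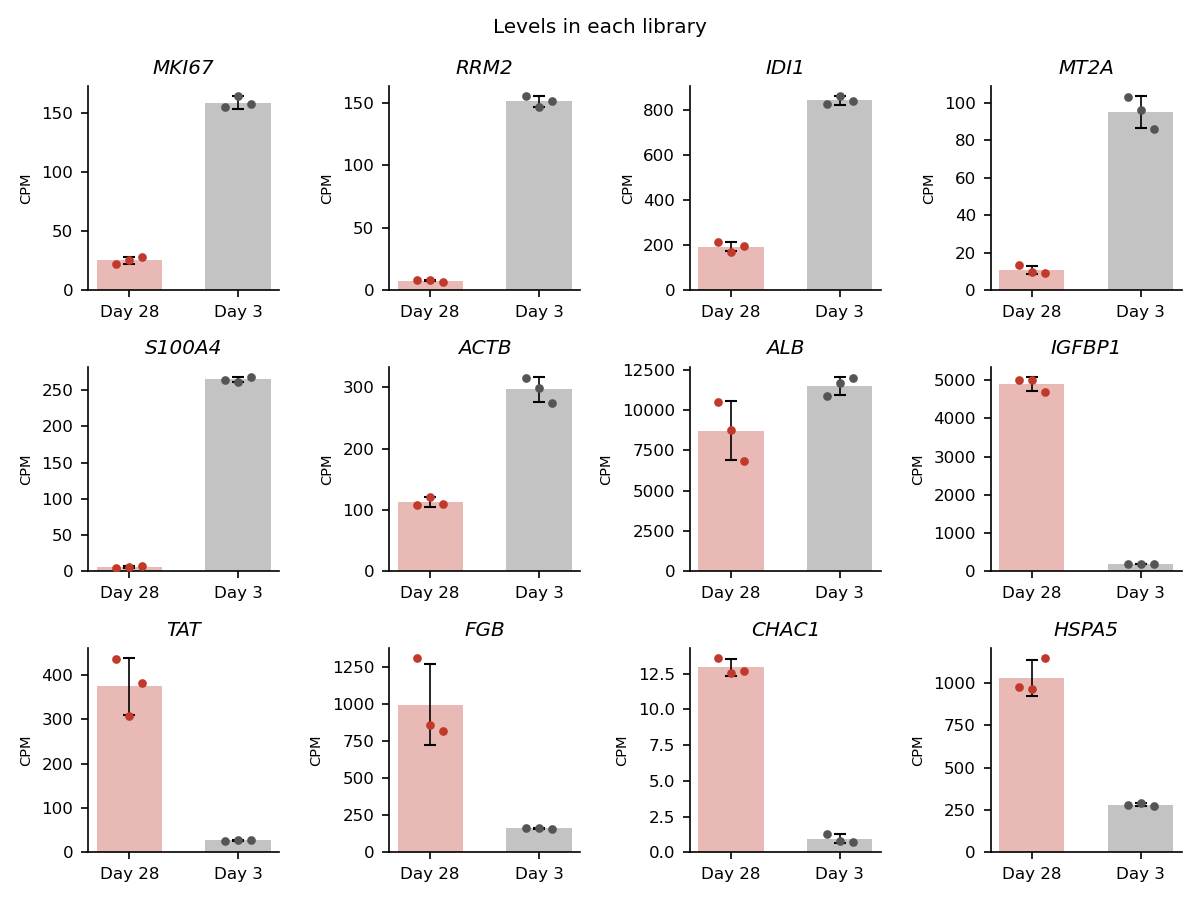
Points are the levels (CPM) of 12 genes in the 3 Day 28 libraries (red) and the 3 Day 3 libraries (grey), bars the means and error bars the SD. In every panel but ALB the gap between the groups is wide against the spread within them; the log2 fold changes run from -5.42 for S100A4 to 4.70 for IGFBP1.

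Metallothioneins and iron genes were lower at Day 28 in 13 of 20 tested and higher in 4, with a median of -1.73. All 7 metallothionein genes tested were called lower. MT2A stood at 13.3, 9.79 and 9.55 CPM at Day 28, against 103, 96.4 and 86.0 CPM at Day 3 (-3.15 ± 0.28, adjusted p = 7.72e-08). MT1M and MT1G, which like MT2A bind zinc and copper, were lower at -3.48 and -2.96. MT1A was at 0 in all Day 28 libraries against 24 counts at Day 3, at least 6.44-fold lower. The genes are near-identical copies, so counts of single members are uncertain. Among iron genes TMPRSS6, a protease that curbs hepcidin, fell by 2.90 on the log2 scale. Hepcidin itself (HAMP), from the acute phase list, stood at 1.28, 1.02 and 1.16 CPM at Day 28, against 3.90, 3.67 and 2.84 CPM at Day 3. TFR2, the hepatocyte's iron-sensing transferrin receptor, stood at 80.5, 71.9 and 68.3 CPM at Day 28, against 14.5, 15.5 and 14.8 CPM at Day 3 (2.30 ± 0.09).

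The list of TGF-beta and BMP targets split evenly, 8 of 21 higher and 8 lower. Known targets of BMP signals were among the lower genes. ID1 stood at 207, 190.2 and 185 CPM at Day 28, against 1303, 1272 and 1393 CPM at Day 3 (-2.77 ± 0.20, adjusted p = 5.44e-09). ID3, ID2 and the inhibitor SMAD7 were lower, with log2 fold changes of -3.11, -1.56 and -1.91. FST and INHBE, an activin antagonist and an activin subunit, rose by 2.53 and 1.95.

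Hepatocyte products split. Of 34 tested plasma protein genes 18 were higher and 9 lower, with a median of 0.29. The 3 fibrinogen chains rose. FGB stood at 1309, 859 and 815 CPM at Day 28, against 163, 167 and 159 CPM at Day 3 (2.61 ± 0.12), and FGA rose by 2.25 and FGG by 1.99. A1BG, an abundant plasma glycoprotein, stood at 814, 656 and 716 CPM at Day 28, against 87.6, 86.0 and 93.8 CPM at Day 3 (3.03 ± 0.07). The clotting inhibitor SERPINC1 (antithrombin) rose by 1.75. ALB, albumin, stood at 10500, 8764 and 6865 CPM at Day 28, against 10850, 11640 and 11960 CPM at Day 3. The groups did not overlap but nearly met, and the change of -0.40 ± 0.14 (adjusted p = 0.0228) was not called without Day 28 replicate 2, Day 28 replicate 3, Day 3 replicate 2 or Day 3 replicate 3 (adjusted p = 0.0748 to 0.162); without Day 28 replicate 3 it was -0.23. AFP, the fetal albumin, stood at 13590, 7854 and 9101 CPM at Day 28, against 12350, 12000 and 12290 CPM at Day 3; Day 28 replicate 1 lay above all Day 3 libraries and the others below. Its change of -0.26 ± 0.15 was not called (adjusted p = 0.137), and without Day 28 replicate 1 it was called at -0.51. Transferrin (TF) and transthyretin (TTR) were lower at -0.99 and -0.58.

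Apolipoproteins were lower in 11 of 19 and higher in 7, all but 2 by under 2-fold, with APOC3 at 331, 256 and 262 CPM at Day 28, against 469, 479 and 499 CPM at Day 3. Complement genes were higher in 10 of 16 and lower in 4, with C8A and C8B of the membrane attack complex at 1.71 and 1.84 and the lectin MBL2 at -1.59. Acute phase genes were higher in 7 of 10 and lower in 3, with LCN2 at 1.93, SERPINA3 at 1.63 and LEAP2, an antimicrobial peptide, at -1.87. In the list of hepatocyte markers 9 of 12 were called lower and 3 higher, TAT among the higher. Without Day 28 replicate 2, Day 28 replicate 3 or Day 3 replicate 3 the number lower was 5, 4 and 5.

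Of 27 tested transcription factors of hepatocytes 13 were higher, 4 lower and 10 not called. HNF4A stood at 28.0, 24.0 and 23.4 CPM at Day 28, against 18.2, 18.5 and 17.6 CPM at Day 3 (0.47 ± 0.11), and PROX1 was not called (-0.01). CEBPB, a factor of the acute phase and of stress, stood at 273, 262 and 262 CPM at Day 28, against 58.5, 59.0 and 61.4 CPM at Day 3 (2.16 ± 0.07, adjusted p = 2.00e-22). The bile acid receptor NR1H4 rose by 1.23 and the xenobiotic receptors moved apart, NR1I3 by 2.40 and NR1I2 by -1.01. Phase I enzymes were higher in 9 of 22 and lower in 4, and phase II enzymes higher in 10 of 29 and lower in 10. CYP3A4, the main drug-oxidising enzyme of adult liver, was under 2 CPM in all 6 libraries compared, at 0.427, 0.205 and 0.660 CPM at Day 28 and 1.84, 1.66 and 1.42 CPM at Day 3. CYP7A1, which makes the first and rate-limiting step from cholesterol to bile acids, was also low, at 1.49, 1.11 and 1.40 CPM at Day 28 and 0.174, 0.173 and 0.106 CPM at Day 3 (3.08 ± 0.52). Genes of bile acid synthesis and transport were higher in 10 of 23 and lower in 8. The other hepatic transporters were higher in 10 of 17 and lower in 4. Fetal and oncofetal genes were lower in 10 of 15 and higher in 2 (1 without Day 28 replicate 2); PEG10, an imprinted gene of placenta and hepatoma, stood at 3672, 5286 and 4873 CPM at Day 28, against 12630, 12630 and 11780 CPM at Day 3 (-1.42 ± 0.11).

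Genes of cell shape were lower more often than higher. In the actin and focal adhesion list 20 of 31 were lower and 2 higher, with a median of -0.63. ACTB, beta-actin, stood at 107, 122 and 109.8 CPM at Day 28, against 315, 299 and 275 CPM at Day 3 (-1.39 ± 0.08, adjusted p = 2.32e-16). Matrix and integrin genes were lower in 12 of 24 and higher in 4, the basement membrane proteoglycan HSPG2 by -3.24 and fibronectin (FN1) by 0.91. Keratins and junction genes were lower in 14 of 29 and higher in 7. The biliary keratin KRT19 stood at 1.12, 1.08 and 0.893 CPM at Day 28, against 14.7, 13.9 and 14.0 CPM at Day 3 (-3.78 ± 0.25), while the tight junction scaffold TJP1 rose by 1.18. Of 8 tested cholangiocyte markers, KRT19 among them, 5 were lower, 1 was higher and 2 were not called. The summed level of the 13 listed was 685.3 to 704.9 CPM at Day 28 and 1482 to 1544 CPM at Day 3. KRT19 was a small part of that sum, and ANXA4, another of the lower markers, averaged 139 CPM at Day 28 and 579 CPM at Day 3. Targets of YAP and TEAD, which respond to cell spreading, did not move one way, with 8 of 19 higher and 6 lower.

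The remaining lists moved in both directions. Immediate early genes were higher in 16 of 30 and lower in 3, EGR1 standing at 16.3, 16.2 and 14.0 CPM at Day 28, against 2.06, 1.59 and 2.41 CPM at Day 3 (2.94 ± 0.14). Lysosome and autophagy genes were higher in 15 of 30 and lower in 10. MAP1LC3B, which coats autophagosomes, stood at 1065, 1240 and 1295 CPM at Day 28, against 363, 342 and 328 CPM at Day 3 (1.80 ± 0.08). Apoptosis regulators were higher in 7 of 24 and lower in 9, with the pro-apoptotic BMF at 2.87 and the caspase CASP6 at -2.02. Urea cycle and amino acid breakdown genes were higher in 13 of 34 and lower in 10. NRF2 targets were higher in 6 of 22 and lower in 8, the heme oxygenase HMOX1 at -1.73 and the reductase AKR1C2 at 1.60. Proteasome genes were higher in 5 of 31 (3 without Day 3 replicate 1) and lower in 11. NF-kB targets were higher in 7 of 16 (4 without Day 3 replicate 2) and lower in 5. WNT targets were higher in 4 of 16 and lower in 7, and interferon targets higher in 7 of 29 and lower in 9. NOTUM, a secreted WNT antagonist that WNT induces, fell by 1.40 on the log2 scale, and PSMB9, an interferon-induced proteasome subunit, fell by 1.66.

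The days between place most of the difference in 1 interval. For each called gene that changed at least 2-fold and had a mean of at least 10 CPM, each sampled day was scored as past or not past halfway between its Day 3 and Day 28 levels, on mean log2(CPM + 0.1). Of 429 such higher genes 43 (10.0%) were past halfway at Day 7 and 39 (9.09%) at Day 10. At Day 14 the number was 377 (87.9%), and at Day 21 it was 405 (94.4%). Of 642 such lower genes 2 were past halfway at Day 7 and 24 (3.74%) at Day 10. On both Day 14 and Day 21 the number was 564 (87.9%). Day 14 was the first day past halfway for 323 of the higher genes (75.3%) and 543 of the lower genes (84.6%). The median log2 ratio to Day 3 of the mitosis list on Days 7, 10, 14, 21 and 28 was -0.26, 0.14, -2.0, -1.76 and -2.22 in turn. The cholesterol list stood at 0.34, 0.23, -1.51, -1.13 and -1.14 on the same days. The ATF4 list stood at 0.01, -0.03, 1.31, 1.09 and 1.59, whereas the ER chaperone list was later, at -0.16, 0.12, 0.34, 1.22 and 1.31. Metallothioneins and iron genes stood at 0.10, 0.09, -0.90, -0.96 and -1.68. These courses are descriptions with no test, and all share the Day 3 libraries. The genes scored were chosen for differing between Day 3 and Day 28, and the levels of these 2 days also set the halfway mark. Whether early and late libraries also differed in handling was not tested.

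**Figure D4:**
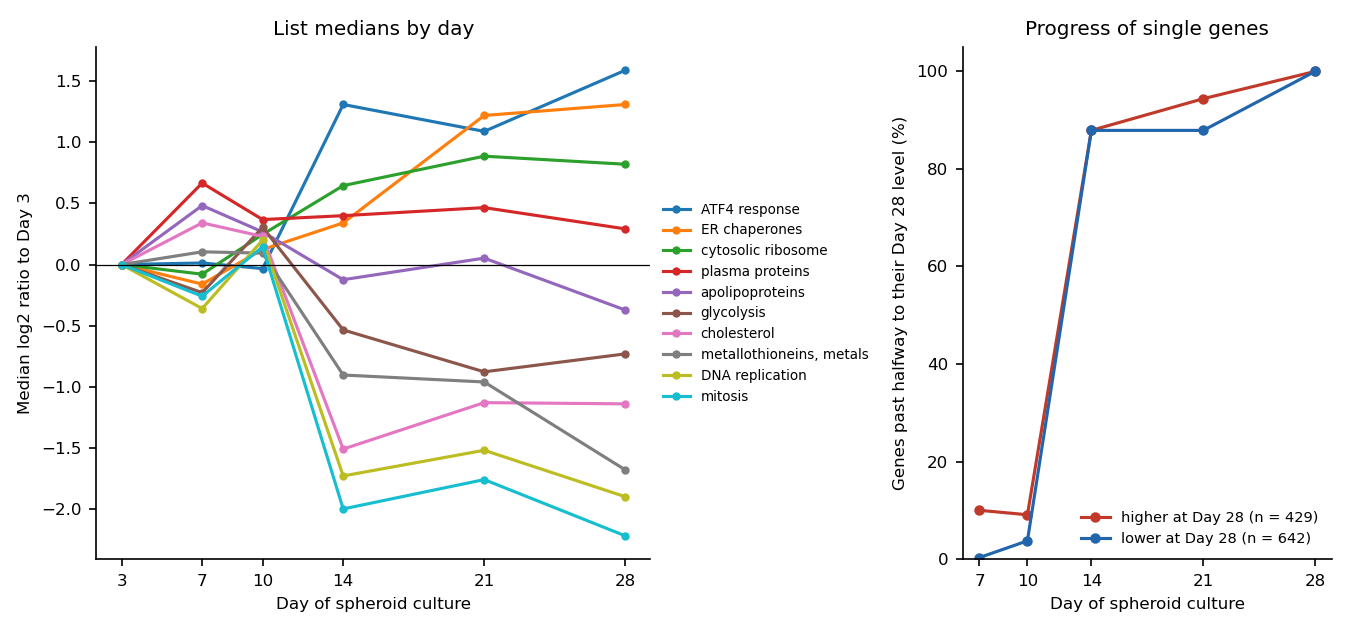
Left, the median log2 ratio to Day 3 of 10 gene lists at each day of spheroid culture. Right, the percentage of genes changed at least 2-fold that were past halfway to their Day 28 level, for 429 higher genes (red) and 642 lower genes (blue). Both curves on the right and the mitosis, DNA replication, cholesterol and ATF4 medians on the left turn between Day 10 and Day 14, and the ER chaperone median turns between Day 14 and Day 21.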

How the data were processed

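TempO-Seq read counts were measured in 21 libraries, 3 for each day of spheroid culture and 3 for the monolayer, and the counts per gene symbol are raw whole numbers as the authors deposited them. Per the submitters' processing notes the genome build named was GRCh38.p13 and the tools named were STAR 2.7.10b, fastp 0.23.2, bcl2fastq 2.20.422 and DESeq2 1.38.0, with no role or order, and other steps are not given in the sources used here. Total counts of the 6 libraries compared ran from 18760232 to 38460731. No columns other than the 21 were present.

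Counts were tested in R 4.3.3 with edgeR 4.0.16, over all 21 libraries, with a group for each day and the monolayer, so that all groups share 1 estimate of the spread (14 residual degrees of freedom). Genes were kept by filterByExpr with a minimum count of 10. The 7338 symbols removed held 0.0108% of counts. Library sizes were scaled by TMM, and p-values of the quasi-likelihood test were adjusted by Benjamini-Hochberg over 12345 genes, with calls at under 0.05. The standard error is the absolute log2 fold change divided by the square root of F. A fold against a group at 0 was computed against a floor of 3 counts over the group, and floors cover counting error only.

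Gene lists drawn up from textbook knowledge, 51 in all, held 1457 genes, of which 1452 were in the table and 1297 were tested. Members and lists were chosen with earlier results of these data known. Named genes were the 10 largest rises and 10 largest falls among called genes with a mean of 10 CPM or more and no overlap, the 2 called members of each list with the largest change in its main direction and 1 in the other direction, and 13 fixed genes, among them ALB, AFP, HNF4A, MKI67, CDKN1A, ACTB, CYP3A4, CYP7A1, VEGFA, CA9 and GAPDH. Some genes under these rules are not reported here. Other list members named were chosen after their values were seen. On counts simulated for this comparison (12126 genes tested), 76 of 96 genes changed 2-fold and 89 of 97 changed 4-fold were recovered. Of the 11933 unchanged genes 13 were called. Those counts held a far smaller share of changed genes than the 59.6% called between Day 28 and Day 3. Recovery with that many changed genes was not tested. Same-numbered replicates did not deviate together (correlations -0.0321, 0.0347 and -0.0599), so the numbers were not taken as pairs. Histones, metallothioneins, tubulins and ribosomal protein genes have near-identical copies, so single members are uncertain. Promoters were read from a RefSeq table for GRCh38.p14.

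Alternatives were scaling by DESeq2's size factors (RLE) or library size alone, no filter, a stricter filter, the 6 libraries alone, DESeq2 1.42.0, limma 3.58.1 with voom, a replicate block and leaving out each library.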

Additional observations from a re-analysis of the deposited data

How the results depend on the processing

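The 7363 calls between Day 28 and Day 3 became 7367 with RLE scaling, 7291 with library size alone, 7255 with no filter, 7063 with a stricter filter, 7135 with the 6 libraries alone, 7491 with DESeq2, 7699 with voom and 7419 with the replicate block. Leaving out 1 library gave 6831 to 7185 calls. The number of calls never moved by over 1.5 times, and no gene called in both fits had the opposite sign under any of these. The median shift in log2 fold change, over genes tested in both fits, was at most 0.032 in size. The replicate numbers gave no pairing, and 1 of the 6 libraries correlated best with its own number. Of 157 named genes 11 changed call under at least 1 alternative, among them AFP, ALB, ITIH4, PNO1, ATR, APCDD1, APOC4, IGF2BP2, MRPL34 and CDKN2B. The cause was not tested. Named genes that an alternative did not test were not counted as changed. The stricter filter tested 141 of the 157 and the fit to the 6 libraries 148. Of 48 list medians, 14 moved by more than their SD over Day 28 replicates without Day 28 replicate 2. With no filter 11 did. Depth limits genes under about 1 CPM, such as CYP3A4 and CYP7A1, where a library holds few counts.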

Other observations

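Some gene families were picked by symbol after their values were seen, in part outside the lists, and are described with no test of the family. Over all genes tested 30.2% were lower at Day 28 and 29.5% higher. Of 59 tested histone genes of the replication-dependent clusters 49 were lower at Day 28 and 3 higher, with a median log2 fold change of -2.14. H1-5, a linker histone of dividing cells, was lower at -3.17. Of 12 tested S100 calcium-binding proteins 10 were lower and 1 higher, with a median of -1.61. The higher one was S100P, at 2924, 2402 and 2455 CPM at Day 28, against 1411, 1308 and 1393 CPM at Day 3. Of 12 claudins, the membrane proteins of tight junctions, 8 were lower and none higher, with a median of -1.51. Of 13 Kruppel-like factors, among them KLF15, 8 were higher and 1 lower, with a median of 0.66. A mean of 10 CPM or more over the 6 libraries was reached by 41 of the histone genes and 8 of the S100 genes. Only 3 of the claudins and 5 of the Kruppel-like factors reached it, so many of those counted were at low levels.

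A comparison of the first and last day misses genes that moved in between. Of 1962 genes that averaged 10 CPM or more and were not called between Day 28 and Day 3, 10 lay at least 2-fold above both ends on a day between and 2 lay as far below both. Among the 10 were ITIH1, ANKRD37, SPAG4, NDUFB5, CYP19A1, LOX, TNFRSF21, APOL1 and FABP1, and the 2 were AREG and ANKRD52. FABP1, the liver fatty acid carrier, and the plasma protein ITIH1 were highest at Day 7. LOX and ANKRD37, which hypoxia is known to induce, were highest at Day 10.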
